A study of Mus musculus with 6 samples.

Results

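Islet RNA collected at ZT12, the nominal time of lights off, was compared with islet RNA collected 4 h earlier at ZT8, in the late light phase. Zeitgeber time (ZT) counts hours from lights on. These 2 samples are 2 of the 6 in the series, chosen because their arrays shared a slide and a scan and are neighbouring time points. Both came from male C57BL6 mice aged 8 weeks, fed chow, with lights on for 12 h and off for 12 h, and no other treatment or genotype was named. Islets were released with collagenase, and RNA from 3 to 5 mice was pooled into 1 Cy3-labelled Agilent array for each time point. The exact number of mice in a pool was not given, nor whether the ZT12 islets were taken just before or just after the lights went off. With 1 pool and 1 array a side there was no replicate check on any difference below and no test was possible, so sizes are described without p-values. Probes that the scanner software flagged well above background at ZT8, ZT12 or both were kept. They were 31824 of 39429 probes and 26417 genes, of which 17907 had a gene symbol.

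Pancreatic islets are clusters of insulin-secreting beta cells, glucagon-secreting alpha cells, somatostatin-secreting delta cells and pancreatic polypeptide cells, set in exocrine tissue made of enzyme-secreting acini and the ducts that drain them. Collagenase digestion frees islets from this tissue, and isolated islets can carry acini, ducts, vessels and pieces of lymph node with them. Islet cells also run the circadian clock, a loop in which BMAL1 and CLOCK switch on the Period, Cryptochrome and REV-ERB repressors that later shut them off. The transition from light to dark is when nocturnal mice begin to feed.

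Each level is a log2 processed signal from which the array's own 75th percentile was subtracted, so 0 is that percentile and a difference of 1 is 2-fold. That percentile was 2090 intensity units on the ZT8 array and 1657 on the ZT12 array. Spots well above background made up 80.3% of 43020 on the ZT8 array and 73.2% on the ZT12 array, and 0 spots were saturated on either. Over probes printed 10 times, the median SD among spots was 0.056 log2 units at ZT8 and 0.055 at ZT12, which covers spot error only. Every defining beta, delta, PP, T, B and plasma cell marker was well above background on both arrays. Of 3 alpha markers 2 were above background at ZT12, as were 4 of 5 measured duct markers and 5 of 6 acinar markers, against all of them at ZT8. The labelled tissue was therefore present in both pools, beside lymphoid and exocrine RNA.

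Across the 17907 genes the ZT12 array was at least 2-fold higher for 2580 genes (14.4%) and at least 2-fold lower for 3048 genes (17.0%), with a median difference of 0.07. Together these were 31.4% of genes with a symbol, and 30.1% of the 26417 genes with and without one. The lower side reached further. Among the 16428 genes measured on both arrays, 263 were at least 4-fold higher and 986 at least 4-fold lower, and 27 were at least 8-fold higher against 316 lower. A further 1288 genes were well above background at ZT8 only, and 191 at ZT12 only. For such genes "at least" below is a bound under the main processing, and some alternatives gave smaller differences. For another 4 h step on the same slide, ZT20 against ZT16, the matching shares were 6.0% higher and 2.06% lower, 8.06% in all.

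The scaling left a trend with brightness that bears on every list below. Ranked by mean level in 3 groups of 5476 genes, the dimmest had a median difference of -0.16, the middle 0.03 and the brightest 0.58. The 100 genes with the highest mean level had a median of 0.46 and ranged from -0.70 to 1.41. Scaling on the median of probes above background on both arrays moved the median of all genes to 0.36 and the share of higher genes among all calls from 45.8% to 65.2%. Loess between the 2 arrays, which removes the trend, gave a median of 0.00 and is quoted beside each list whose count it moved by over 1.5 times. With loess, 10.7% of all genes were at least 2-fold higher and 16.6% at least 2-fold lower.

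**Figure D1:**
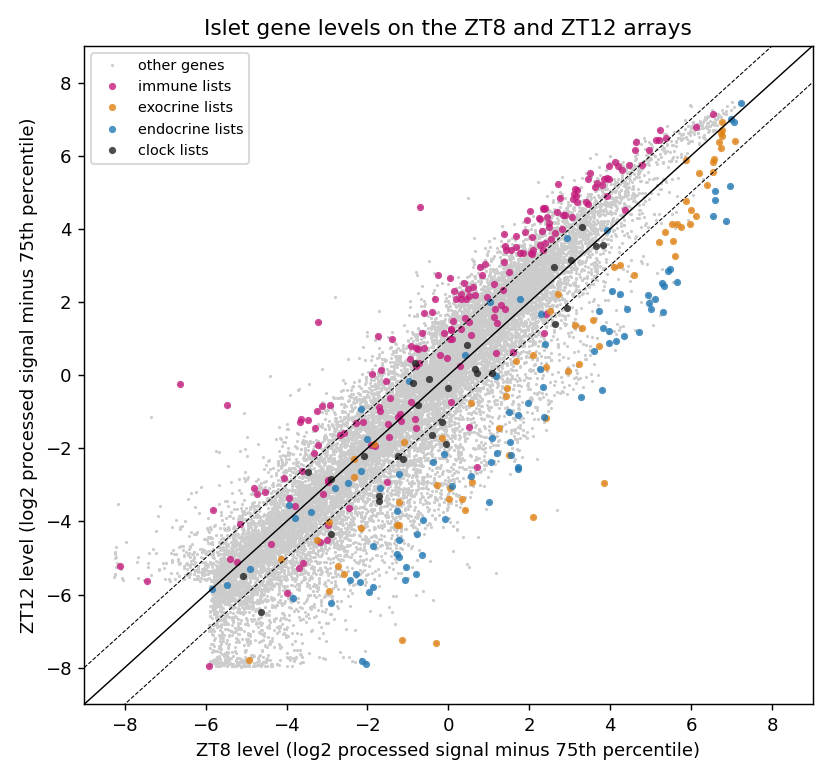
Each point is 1 gene, with its level on the ZT8 array on the x axis and on the ZT12 array on the y axis, both in log2 units relative to the 75th percentile of the array. The solid line is equality and the dashed lines are 2-fold. Endocrine and exocrine list genes spread below the lines, immune list genes lie mostly above them, and the brightest genes lie slightly above equality.

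Among the clock, endocrine, exocrine and immune lists, endocrine genes gave the most genes at least 2-fold lower. Of 92 measured genes in 5 endocrine lists, 71 (77.2%) were at least 2-fold lower on the ZT12 array and 1 was higher, with a median of -2.75, against 17.0% lower over all genes. Fewer endocrine cells in the pool and less RNA per cell cannot be told apart in bulk RNA, here or in the lists that follow. Under every alternative processing that measured them, 66 of the 71 genes were still at least 2-fold lower.

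The hormone genes split. The level of Sst, which encodes somatostatin, was 5.31 at ZT8 and 1.72 at ZT12, 12.1-fold lower. Ppy (pancreatic polypeptide) stood at 4.71 and 1.18, 11.6-fold lower, and Pyy (peptide YY) at 4.15 and 0.94, 9.23-fold lower. All 3 are products of the less abundant islet cell types. Gcg, the glucagon gene of alpha cells, was at 6.87 and 4.20, 6.37-fold lower, and Ghrl, which encodes ghrelin, at -1.23 and -2.70, 2.76-fold lower.

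The beta cell hormones did not follow. Ins2 was at 7.23 at ZT8 and 7.44 at ZT12. Ins1 stood at 6.99 on both arrays and Iapp, which encodes amylin, at 7.05 and 6.91. The probes of all 3 are among the brightest of the array. The processed signal of Ins2 was 314100 at ZT8, the highest of that array, and 288600 at ZT12, and the median spot signals stayed below the saturation value of 778358. At such brightness a probe can respond less than in proportion to RNA, and whether that held here was not tested. The Gcg probe had a processed signal of 243900 at ZT8 and 30380 at ZT12. The range over the alternatives was -0.80 to 0.50 for Ins2 and -0.99 to 0.29 for Ins1, and near-identical sequence means that each insulin probe may also read the other gene.

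Granule and prohormone processing genes moved more evenly. Of 14 measured, 12 were at least 2-fold lower, with a median of -2.67, and all 12 kept that under every alternative. Ptprn, a granule membrane protein, had levels of -0.64 and -4.91, 19.3-fold lower. Its ZT12 level lay near the lowest level above background (-5.84), and its difference was -4.34 to -2.87 over the alternatives. Vgf, a granin-like precursor, was at 1.06 and -2.38, 10.9-fold lower. Chgb, a granin of the granule core, was at 5.66 and 2.54, 8.71-fold lower. Pcsk1, the convertase that cuts proinsulin, was at 3.98 and 0.87, and Slc30a8, the zinc transporter of insulin granules, at 5.11 and 2.08, 8.62-fold and 8.17-fold lower. Scg5, which chaperones the convertase PC2, was 6.73-fold lower.

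Transcription factors of islet identity had a median of -3.03, and 22 of 28 measured were at least 2-fold lower with 0 higher. Neurod1, a bHLH factor of endocrine cells, was at -0.80 and -5.44, 25.0-fold lower on the brighter of its 2 probes and -3.12 on the other. Its ZT12 level lay near the lowest level above background (-5.84), and its difference was -4.71 to -2.85 over the alternatives. Nkx6-1, a beta cell homeobox factor, was at 1.73 and -2.52, 19.0-fold lower. Pax6 was at -0.09 and -3.93, 14.4-fold lower, and Isl1 at 1.54 and -2.19, 13.2-fold lower. Both are homeobox factors of all islet endocrine cells. Myt1, of endocrine progenitors and islet cells, was not well above background at ZT12, at least 14.8-fold lower.

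Pdx1, a master factor of the pancreas and beta cell, was 12.0-fold lower (-0.77 and -4.35). In contrast, the beta cell factor Mafa differed by -0.61 (2.28 and 1.67) and the delta cell factor Hhex by 0.30 (1.78 and 2.08). Pdx1 was named after its values were seen. The transcription factor list therefore held members on both sides of 0.

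Glucose sensing genes and receptors had a median of -3.10, with 19 of 22 at least 2-fold lower. Gipr, the receptor for the incretin GIP, was at 1.01 and -3.47, 22.4-fold lower. Trpm5, a cation channel, was at 1.73 and -2.58, 19.8-fold lower, and Slc2a2, the glucose transporter GLUT2, at 3.80 and -0.40, 18.4-fold lower. For Prlr, the prolactin receptor, the brighter of 2 probes differed by -3.87 and the other by -1.39. For Cacna1d, an L-type calcium channel, the 2 probes gave -3.63 and -0.76. The 1 gene on the other side was Adcyap1r1, the PACAP receptor, at -2.15 and -0.93, 2.33-fold higher.

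Vesicle fusion genes, which release the granule content, were 13 of 20 lower with a median of -2.02. Syt4, a synaptotagmin, was not well above background at ZT12 and was at least 23.1-fold lower, and Rims2, of the docking zone, at least 13.9-fold lower. Syt7, a calcium sensor of exocytosis, was 13.6-fold lower (-1.22 and -4.98), with differences of -3.84 to -2.21 over the alternatives. Cplx1, Sytl4 and Cadps, which act in priming and docking, were 9.73-fold, 7.64-fold and 6.69-fold lower.

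**Figure D2:**
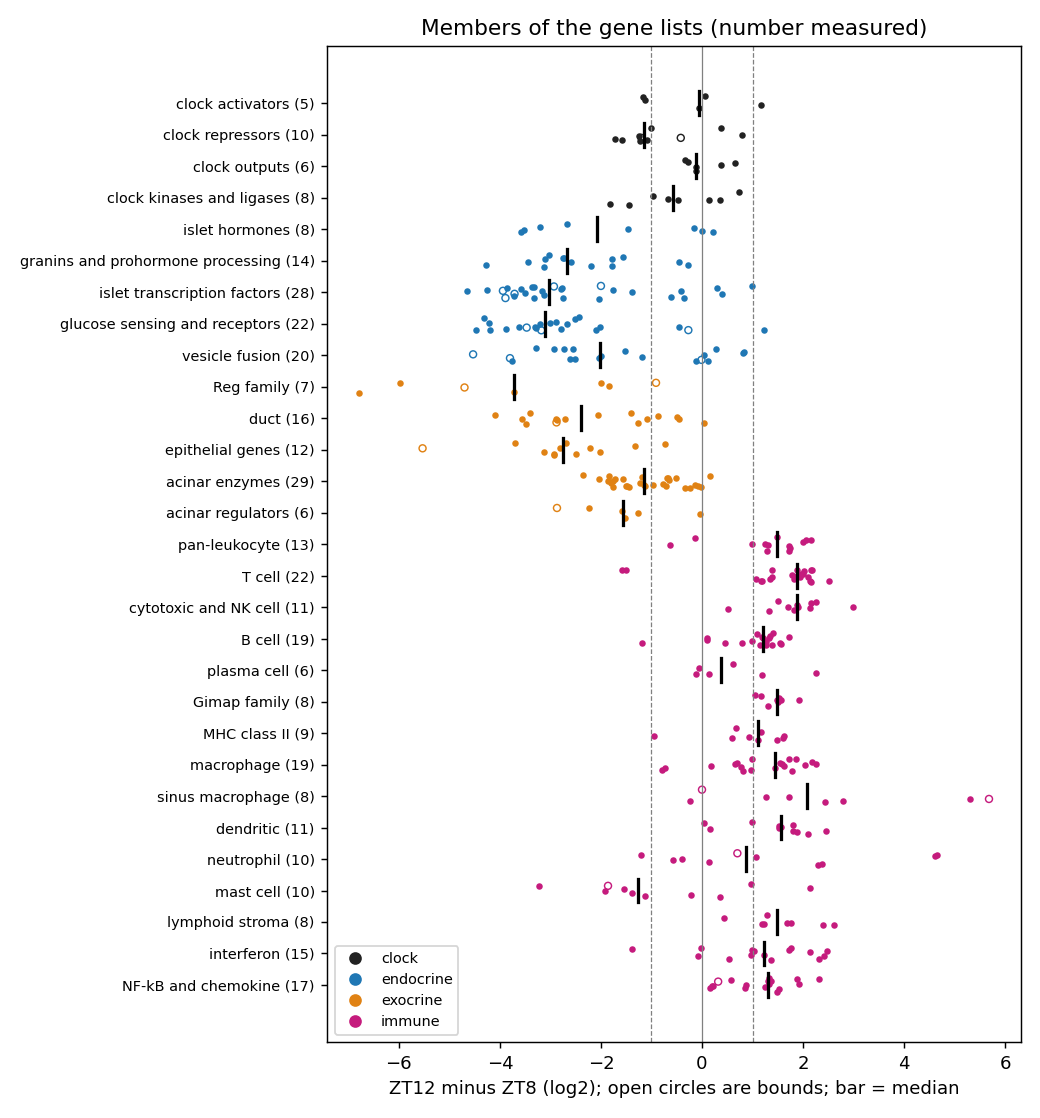
Each circle is the ZT12 minus ZT8 difference of 1 gene in log2 units, by list, with the number of genes measured in brackets, the list median as a bar and dashed lines at 2-fold. Endocrine medians run from -3.10 to -2.02 and exocrine medians from -3.72 to -1.14, while immune medians run from 0.37 to 2.08 apart from the mast cell list at -1.26; open circles are genes above background on 1 array only, drawn at their bound.

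Exocrine and duct genes were also lower. Of 70 measured genes, 50 (71.4%) were at least 2-fold lower and 0 were higher, with a median of -1.65, and 42 of the 50 were so under every alternative. The 70 include 12 epithelial genes shared with endocrine cells, so this share is not wholly separate from the endocrine lists. The Reg family, secreted lectins of acinar and regenerating islet tissue, had the lowest list median (-3.72), with 6 of 7 lower. Reg2 stood at 3.85 at ZT8 and -2.94 at ZT12, 111-fold lower and the furthest of any gene measured on both arrays. Reg3b was at 2.10 and -3.88, 63.2-fold lower, Reg3g at 0.34 and -3.38, 13.2-fold lower, and Reg3a was not well above background at ZT12, at least 26.0-fold lower. Reg3d was 3.97-fold lower and Reg1 3.59-fold lower, at levels of 5.98 and 4.14. On the other arrays of the slide Reg2 stood at -0.23 at ZT16 and 7.16 at ZT20, so its level differed between pools well beyond this step.

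Duct genes had a median of -2.39, and 12 of 16 were at least 2-fold lower. Krt7, a duct keratin, was at 0.41 and -3.68, 17.0-fold lower, and Krt19, the classical duct marker, at 0.02 and -3.38, 10.6-fold lower. Spp1, osteopontin, was 11.9-fold lower (2.41 and -1.17). Tspan8, a tetraspanin of duct epithelium, was 11.3-fold lower. Sox9, the duct and progenitor factor, was 7.34-fold lower.

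Genes shared by epithelial cells, endocrine cells included, were 11 of 12 lower with a median of -2.75. Epcam, an adhesion molecule of epithelium, was at -0.31 at ZT8 and not well above background at ZT12, at least 46.3-fold lower. Its difference was -7.02 to -3.70 over the alternatives. Krt8 was 13.1-fold lower and Krt18 7.61-fold lower, the keratin pair of simple epithelium. Cdh1, E-cadherin, was at 3.22 and 0.30, 7.57-fold lower. Rab25 and Elf3, both of epithelial cells, were 8.70-fold and 7.04-fold lower.

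The count of lower acinar enzyme genes depended on the scaling. Of 29 measured, 16 were at least 2-fold lower with a median of -1.14, and with loess 27 were, with a median of -1.89. Cela1, an elastase, was at 5.61 and 3.25, 5.14-fold lower, and Pnliprp2, a lipase-related protein, at 3.31 and 1.29, 4.07-fold lower. Cela3b, Klk1, Cuzd1 and Pla2g1b, secreted acinar products, were 3.41-fold to 3.67-fold lower. Several enzymes with very bright probes lay near 0, as for the insulin genes. Amy2a5, an amylase, was at 6.76 and 6.92 and Try4, a trypsinogen, at 6.76 and 6.69, both named after their values were seen; the amylase and trypsin families hold near-identical copies. Among acinar regulators 5 of 6 were lower. Ptf1a, the acinar master regulator, was not well above background at ZT12, at least 7.32-fold lower. Its partner Rbpjl was 3.00-fold lower, Bhlha15, which builds the secretory apparatus, 2.90-fold lower, Gatm, of creatine synthesis, 4.71-fold lower, and Gata4 differed by -0.04.

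Among the clock, endocrine, exocrine and immune lists, immune genes gave the most genes at least 2-fold higher. Of 186 measured, 124 (66.7%) were at least 2-fold higher and 11 lower, with a median of 1.33, against 14.4% higher over all genes. With loess 83 of 186 (44.6%) were higher, against 10.7% over all genes, and the median was 0.92. Of the 124 higher genes 70 were at least 2-fold higher under every alternative, and of the 11 lower genes 2 stayed at least 2-fold lower. Over all the alternatives, which change scaling, background, filter, probe rule or source, lists kept different numbers: 14 of 20 T cell genes and 9 of 10 cytotoxic genes stayed at least 2-fold higher, against 2 of 13 B cell genes and 1 of 8 Gimap genes.

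T cell genes had a median of 1.89, with 20 of 22 at least 2-fold higher. Ccr7, the homing receptor of naive T cells, was at 2.72 and 5.23, 5.71-fold higher. Cd28, the costimulatory receptor, was 4.50-fold higher, and the CD3 chains Cd3g and Cd3d 4.48-fold and 4.27-fold higher (2.37 and 4.53 for Cd3g). Cd8a was 4.42-fold higher, with 0.78 on its other probe, and Zap70, a T cell receptor kinase, 4.39-fold. Cd247, which encodes the zeta chain of the same receptor, and Lef1, a factor of naive T cells, went the other way, 2.99-fold lower (-3.69 and -5.27) and 2.83-fold lower (-3.00 and -4.50). Neither stayed at least 2-fold lower under every alternative, with smallest differences of -0.56 and -0.60.

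Cytotoxic and NK genes were 10 of 11 higher with a median of 1.89. Gzma, granzyme A, was at -0.26 and 2.73, 7.93-fold higher, and Gzmb, granzyme B, at -3.48 and -1.22, 4.80-fold higher. Il2rb, Ctsw, Klrd1 and Nkg7, all of cytotoxic cells, were 3.69-fold to 4.44-fold higher. All 8 members of the Gimap family, lymphocyte GTPases, were at least 2-fold higher with a median of 1.49. With loess 1 of 8 (12.5%) was higher, near the 10.7% over all genes. Pan-leukocyte genes also fell in count, from 10 of 13 with a median of 1.49 to 3 of 13 (23.1%) with loess. Ikzf1, a lymphoid factor, was 4.47-fold higher and Cd48 4.13-fold.

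B cell genes were 13 of 19 higher with a median of 1.21. With loess 2 of 19 (10.5%) were higher, near the 10.7% over all genes. Pou2af1, a B cell coactivator, was at 3.07 and 4.81, 3.33-fold higher, and Vpreb3 was 2.96-fold higher. Pax5, the B cell identity factor, was 2.26-fold lower (-2.45 and -3.63), with a smallest difference of -0.51 over the alternatives. Among plasma cell genes 2 of 6 were higher: Tnfrsf17, the survival receptor BCMA, was 4.78-fold higher, and Jchain, which joins IgA and IgM, 2.29-fold. With loess 1 of the 6 (16.7%) was higher. MHC class II genes were 5 of 9 higher with a median of 1.1, and with loess 2 were higher and 1 lower, with a median of 0.57. H2-Eb2 was 3.09-fold and H2-Oa 3.06-fold higher, Cd74, the invariant chain, 2.14-fold, and H2-Aa 1.93-fold lower.

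Among immune genes, the furthest gains were those of Marco and Cd209b in the sinus macrophage list. Marco, a scavenger receptor of marginal zone and lymph node sinus macrophages, was at -0.70 at ZT8 and 4.60 at ZT12, 39.4-fold higher and the furthest up of any gene measured on both arrays. Cd209b, the lectin SIGN-R1 of the same cells, was not well above background at ZT8 and at -0.25 at ZT12, at least 51.3-fold higher. Its difference was 3.85 to 6.38 over the alternatives. Cd5l, which macrophages secrete, was at -1.74 and 1.07, 6.99-fold higher. Siglec1, CD169 of sinus macrophages, was 5.43-fold higher on its brighter probe and differed by 0.23 on the other. Timd4 and Spic, of tissue and iron-handling macrophages, were 3.29-fold and 2.41-fold higher. Of the general macrophage list 10 of 19 were higher, led by Aif1 (4.74-fold), C1qc (4.53-fold) and Csf1r (4.09-fold), the CSF1 receptor, one of whose 3 probes gave -0.25.

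Dendritic cell genes were 8 of 11 higher with a median of 1.56. Cd83, a marker of mature cells, was 5.51-fold higher, and Xcr1, Clec9a and Batf3, of cross-presenting dendritic cells, 4.30-fold, 3.51-fold and 3.50-fold. The stroma of lymphoid organs was 7 of 8 higher with a median of 1.49, and 4 of 8 with loess with a median of 0.97. Lyve1, of lymphatic endothelium and some macrophages, was at 0.04 and 2.66, 6.14-fold higher. Chst4, a sulfotransferase of high endothelial venules, was 5.24-fold higher, and the chemokine Ccl19 and the addressin Madcam1, both of lymphoid tissue, 3.41-fold and 3.23-fold, although a second Madcam1 probe gave 0.22.

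Neutrophil genes split. S100a9 and S100a8, subunits of calprotectin, were at -3.21 and 1.46, and at -5.46 and -0.83, 25.3-fold and 24.6-fold higher. Retnlg and Camp, of neutrophil granules, were 5.22-fold and 4.88-fold higher, and Mpo, myeloperoxidase, 2.10-fold. Elane, neutrophil elastase, was 2.29-fold lower, with a smallest difference of -0.91 over the alternatives. Mast cell genes were the exception among immune lists, with 6 of 10 lower, 1 higher and a median of -1.26. Of the 6, only 2 (Mcpt4 and Tpsb2) stayed at least 2-fold lower under every alternative. With normexp and quantile normalization 2 of 10 were lower and the median was -0.56. Mcpt4, a mast cell chymase, was at 0.70 and -2.51, 9.31-fold lower, Tpsb2, a tryptase, 3.79-fold lower on one probe and -0.87 on the other, and Fcer1a, of the IgE receptor, at least 3.62-fold lower. Cma1 and Cpa3 were 2.93-fold and 2.62-fold lower, and Mcpt1, a chymase of mucosal mast cells, was 4.38-fold higher from -5.82 to -3.69.

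Interferon-response genes were 9 of 15 higher with a median of 1.23, and NF-kB and chemokine genes 10 of 17 higher with a median of 1.31. Gbp2, an interferon-induced GTPase, was 5.56-fold higher, the chemokines Cxcl9 and Cxcl10 5.32-fold and 4.99-fold, and Isg15 4.39-fold. Irf7, a factor of the interferon response, was 2.60-fold lower (-3.18 and -4.56), with a smallest difference of -0.57 over the alternatives. Traf1, an NF-kB target, was 4.95-fold higher, Ccl3 3.78-fold and Relb, an NF-kB subunit, 3.68-fold. These response genes were higher on the same array as the leukocyte lists, and the part of leukocyte numbers in that was not tested.

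**Figure D3:**
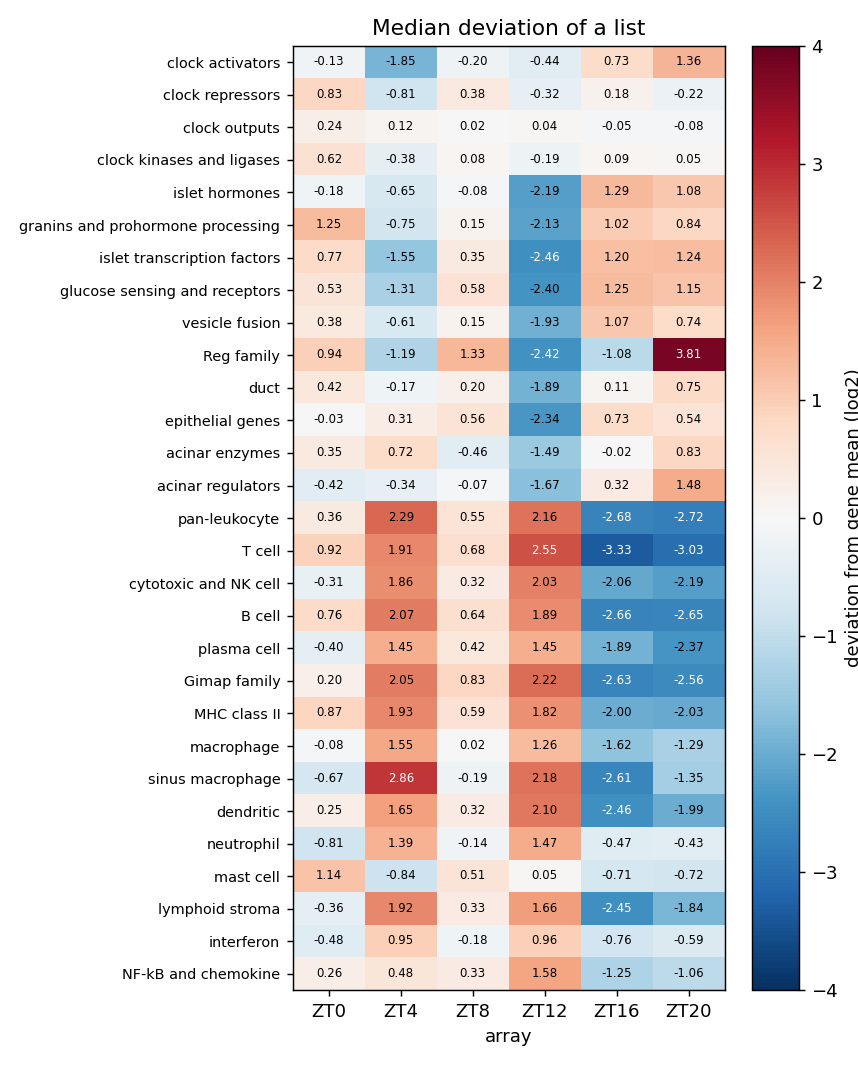
Each cell is the median, over the genes of a list measured on all 6 arrays, of the deviation from the mean of the 6 arrays in log2 units. The ZT12 column shows endocrine lists from -2.46 to -1.93 and immune lists from 1.26 to 2.55 apart from interferon (0.96) and mast cell (0.05), next to a ZT8 column between -0.46 and 1.33; the ZT0 and ZT4 arrays were read in other scans.

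The position of the 2 arrays among the 4 of the slide reuses the ZT8 and ZT12 values above, so it adds no separate support. How often ZT12 was the lowest or highest array over all genes was not counted. The ZT12 array was the lowest of ZT8, ZT12, ZT16 and ZT20 for 78 of 92 endocrine genes and 64 of 70 exocrine genes, and the highest for 158 of 186 immune genes. Among 222 genes of the lists outside the clock, endocrine, exocrine and immune groups, it was the lowest for 59 and the highest for 102. The T cell list shows the size of the swing between pools. Its median deviation was 0.68 on the ZT8 array and 2.55 on the ZT12 array, then -3.33 and -3.03 on the ZT16 and ZT20 arrays. The islet transcription factors stood at 0.35, -2.46, 1.20 and 1.24 in the same order. Endocrine and lymphoid lists thus lay on opposite sides on the ZT12, ZT16 and ZT20 arrays. The ZT12 array was not alone in its direction. On the ZT4 array, read in another scan, the median deviation was 1.91 for T cell genes and -1.55 for islet transcription factors. Over all 6 arrays, ZT12 was the highest for 11 of 21 T cell, 5 of 18 B cell and 1 of 7 sinus macrophage genes, again with no share over all genes counted.

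Clock genes differed less than these groups. Of 29 measured, 1 was at least 2-fold higher and 11 (37.9%) lower with a median of -0.42, against 14.4% and 17.0% over all genes. Scaling on the median of probes above background on both arrays left 3 higher (10.3%) and 4 lower (13.8%). Over all genes that scaling gave 23.8% higher and 12.7% lower, so the clock share lower was near that of all genes. Quantile normalization left 2 higher (6.9%) and 8 lower (27.6%), against 14.5% and 14.5% over all genes. With normexp background correction and quantile normalization, 1 was higher (3.4%) and 5 lower (17.2%), against 9.2% and 11.1%. Loess left 2 higher and 10 lower (34.5%, against 16.6% over all genes), with a median of -0.78. The count of lower clock genes therefore rests on the processing. Arntl, Nr1d1 and Btrc were the 3 that stayed at least 2-fold apart under every alternative.

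Among activators, Arntl, which encodes BMAL1, was at -0.82 at ZT8 and 0.34 at ZT12, 2.24-fold higher, with 0.37 at ZT16 and 1.37 at ZT20. Its partner Clock was at -0.16 and -1.28, 2.18-fold lower. Rora, which activates Arntl, was 2.25-fold lower (-1.12 and -2.29), while Rorb of the same receptor family differed by 0.06. BMAL1 and CLOCK genes thus lay on opposite sides of 0.

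Of 10 repressors, 7 were at least 2-fold lower, with a median of -1.15. Nr1d1, which encodes REV-ERB alpha, was at -1.71 and -3.43, 3.29-fold lower, and its ZT16 and ZT20 spots were not well above background. Its relative Nr1d2 was at 1.07 and 0.06, 2.02-fold lower. Ciart, a repressor of BMAL1 and CLOCK, was at -1.72 and -3.30, 2.99-fold lower. Per2 was at -0.40 and -1.65, 2.38-fold lower, and Per1 at 2.92 and 1.84, 2.12-fold lower; both were higher again at ZT16, at -0.01 and 3.77. Cry2 was at 2.63 and 1.40, 2.34-fold lower, but Cry1 at -3.46 and -2.66 differed by 0.80. Per3 and Bhlhe41 were not well above background at ZT12, at least 1.34-fold and at least 2.30-fold lower, and Bhlhe40, the other E-box bHLH repressor, differed by 0.37.

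The clock output genes differed little. Of 6 measured, 0 were at least 2-fold apart. Dbp, a PAR bZIP factor that clock proteins drive through E-boxes, was at 3.83 and 3.55, with 2 probes at -0.28 and -0.30, and then at 1.99 at ZT16. Tef and Hlf, its relatives, each differed by -0.12. Nfil3, which opposes them at the same sites, was at -0.87 and -0.21, a difference of 0.66. Wee1, a cell cycle kinase under clock control, differed by 0.38, and Usp2, a ubiquitin protease, by -0.34.

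Among the kinases and ubiquitin ligases that set the stability of Period and Cryptochrome proteins, Btrc was at -0.06 and -1.89, 3.56-fold lower on the brighter of 2 probes and -0.85 on the other, and Fbxl21 at -2.91 and -4.35, 2.71-fold lower. Fbxw11, the paralog of Btrc, differed by 0.13. The kinases Csnk1d, Csnk1e, Gsk3b and Csnk2a1 differed by 0.74, -0.48, -0.67 and 0.35, and 4 probes of Csnk2a1 ranged from -0.24 to 0.80.

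**Figure D4:**
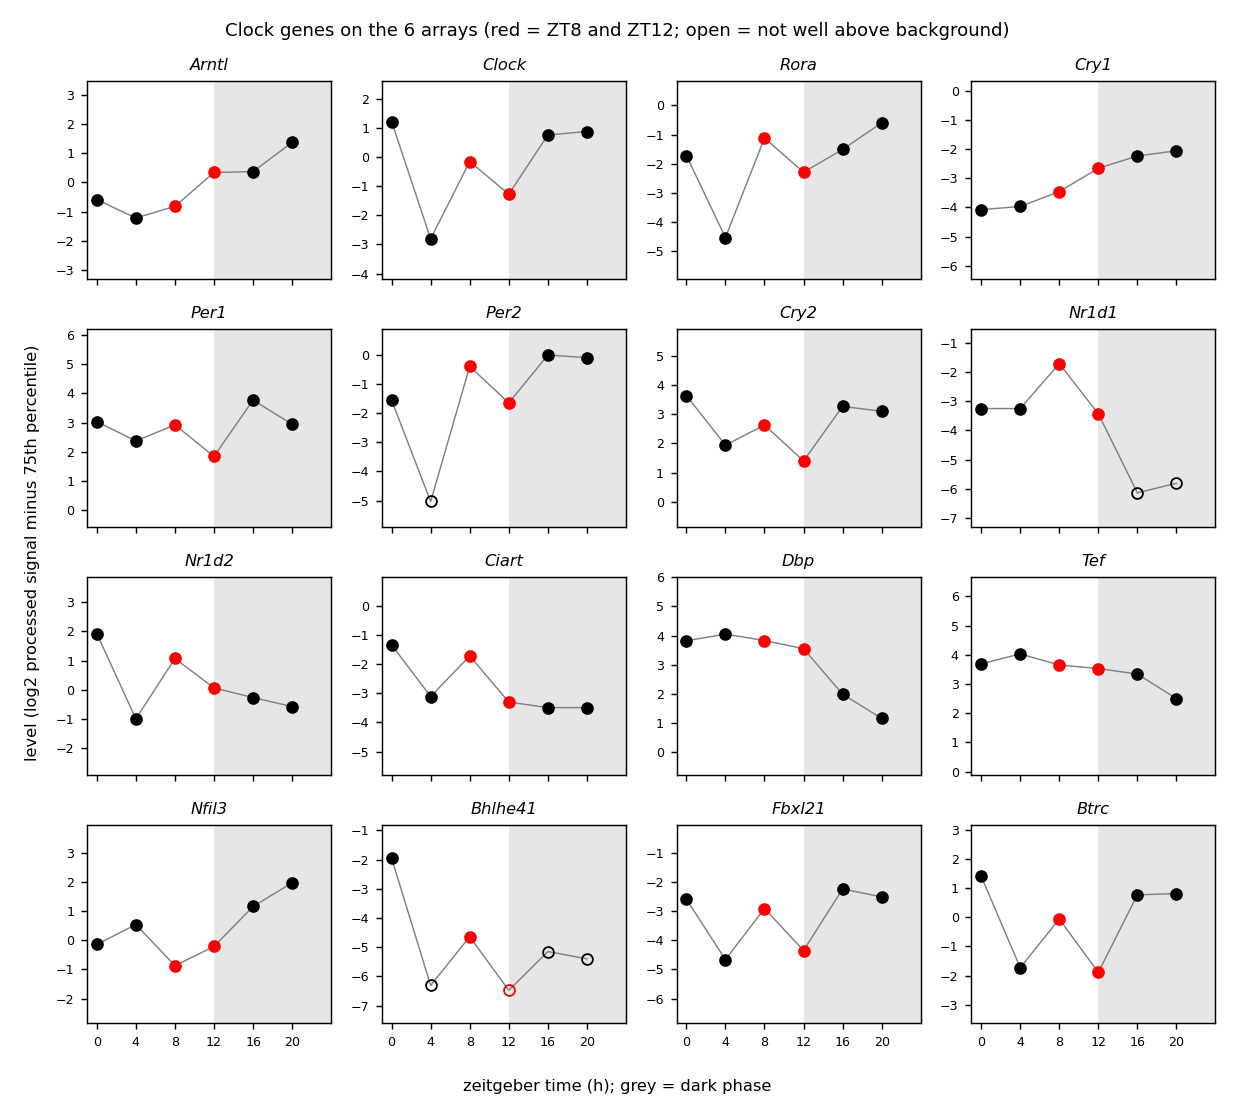
Levels of 16 clock genes at each zeitgeber time in hours, in log2 units relative to the 75th percentile of the array, with ZT8 and ZT12 in red, open symbols for spots not well above background and the dark phase in grey. Arntl and Cry1 are higher and Nr1d1 and Ciart lower at ZT12 than at ZT8, Dbp is nearly level until ZT12, and Clock, Per2, Cry2, Fbxl21 and Btrc dip at ZT4 and ZT12; each panel spans the same range.

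Promoter sequences are shown for 3 repressors that were lower at ZT12 and for Cry1, which was not. Their windows hold a motif of the loop, as does that of Bhlhe41, also lower, which is not shown. The lower repressors Nr1d1 and Cry2 held none in theirs, nor did a second annotated Per1 promoter. They are RefSeq sequences of GRCm38.p6, each the 250 bases before the annotated start, 5′ to 3′ on the strand of the gene. Capitals mark CACGTG, the E-box bound by BMAL1 and CLOCK, or AGGTCA, the core site of REV-ERB and ROR receptors, on either strand. Ciart is at chr3:95882229-95882478 on the minus strand, Per1 at chr11:69098699-69098948 on the plus strand, Nr1d2 at chr14:18239107-18239356 on the minus strand and Cry1 at chr10:85185055-85185304 on the minus strand.
Ciart: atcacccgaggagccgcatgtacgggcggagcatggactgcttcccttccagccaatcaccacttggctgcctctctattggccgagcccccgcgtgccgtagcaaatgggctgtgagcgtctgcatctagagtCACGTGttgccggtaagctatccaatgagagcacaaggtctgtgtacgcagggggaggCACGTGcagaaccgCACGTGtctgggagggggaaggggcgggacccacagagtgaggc
Per1: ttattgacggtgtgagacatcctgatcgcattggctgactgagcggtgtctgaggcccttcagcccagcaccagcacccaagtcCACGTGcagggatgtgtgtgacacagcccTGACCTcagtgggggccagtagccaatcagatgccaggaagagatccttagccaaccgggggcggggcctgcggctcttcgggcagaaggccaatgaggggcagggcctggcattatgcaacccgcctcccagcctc
Nr1d2: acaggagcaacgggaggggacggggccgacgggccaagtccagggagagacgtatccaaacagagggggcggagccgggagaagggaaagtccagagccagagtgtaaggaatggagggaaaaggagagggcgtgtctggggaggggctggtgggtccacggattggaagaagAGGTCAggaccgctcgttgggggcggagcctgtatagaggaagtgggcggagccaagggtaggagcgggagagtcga
Cry1: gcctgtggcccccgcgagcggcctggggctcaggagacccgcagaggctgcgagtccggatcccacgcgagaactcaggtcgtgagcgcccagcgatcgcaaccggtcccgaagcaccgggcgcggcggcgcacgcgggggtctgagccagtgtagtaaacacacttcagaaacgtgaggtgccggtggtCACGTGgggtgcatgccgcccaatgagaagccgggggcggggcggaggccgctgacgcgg

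Ciart held 3 E-boxes, 116, 58 and 44 bases before its start, Per1 held 1 at 166 bases with a core site at 137, Nr1d2 held 1 core site at 77 and Cry1 held 1 E-box at 60. Over windows of 300 bases, which add the first 50 after the start, CACGTG was found in 7.15% of 32851 promoters, AGGTCA in 16.3% and the D-box letters TTATGTAA or TTACGTAA in 1.06%, both strands counted. Of 24 clock genes with a sequence, 5 held an E-box (Bhlhe41, Ciart, Cry1, Per1 and Tef), 5 a core site (Arntl, Clock, Nfil3, Nr1d2 and Per1) and 1 a D-box (Per3). Some of these genes have several promoters. Counted by promoter, as the shares above are, these were 6, 5 and 1 of 33. E-box genes were thus found on both sides of 0, and a match is only a description of the letters in the window.

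Outside the lists, the genes furthest down included further genes of endocrine and nerve-like cells. Camk2n1, an inhibitor of CaM kinase II, was at 1.18 and -5.40, 95.9-fold lower. Vip, vasoactive intestinal peptide, was at 0.46 and -5.17, 49.6-fold lower. The ZT12 levels of Camk2n1 and Vip lay near the lowest level above background (-5.84). Over the alternatives their differences were -6.65 to -4.88 and -5.70 to -4.18. Npy, neuropeptide Y, was not well above background at ZT12, at least 33.0-fold lower. Unc80, of the NALCN sodium leak channel, was 23.9-fold lower on its brighter probe and -0.69 on the other. Atp8b1, a phospholipid flippase, was 53.9-fold lower. Tspan9, a tetraspanin, Zdhhc2, a palmitoyltransferase, and Cryba2, a crystallin, were 30.8-fold, 27.5-fold and 24.9-fold lower. Over the alternatives the smallest differences of Atp8b1, Tspan9, Zdhhc2 and Cryba2 were -4.15, -3.47, -3.58 and -3.04. The others were 1810009J06Rik (82.1-fold) and Pxt1 (36.1-fold). By bound, Cdk5r2, an activator of CDK5, was at least 44.2-fold lower, Glrb, of the glycine receptor, at least 37.0-fold, Tob1, an antiproliferative factor, at least 23.6-fold, and Gm10941 and Tlx2, a homeobox factor of enteric neurons, at least 23.4-fold and 23.1-fold.

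The genes furthest up were of mixed kind. Dnah2, an axonemal dynein, was at -2.80 and 2.12, 30.3-fold higher. Gbp2b, an interferon-induced GTPase, was 20.9-fold higher, and Aldh1a2, which makes retinoic acid, was at 0.48 and 4.83, 20.4-fold higher. Apol10b, Insl6, Bcl2l14 and the X-linked Xlr5b and Xlr5c were 11.4-fold to 16.0-fold higher, and 9130024F11Rik 12.6-fold. By bound, Cpsf4l was at least 27.6-fold higher, and Anapc10, Fam3b, Gm14461 and Cyp1a1, a xenobiotic-metabolising enzyme, at least 5.83-fold to 7.28-fold. The difference of Cpsf4l was 2.97 to 6.19 over the alternatives. Ido1 and Ido2, which degrade tryptophan, were at least 5.34-fold and 5.14-fold higher from spots not well above background at ZT8.

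**Figure D5:**
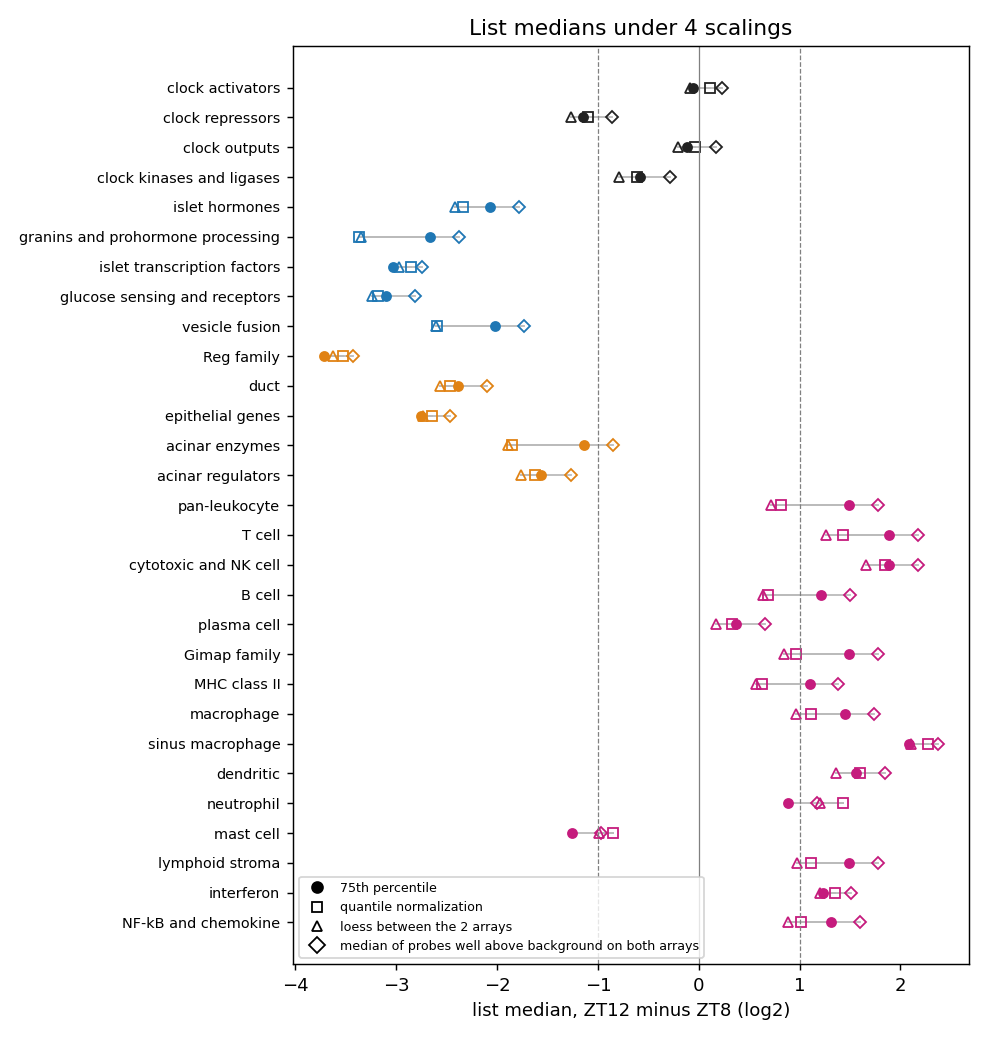
Median ZT12 minus ZT8 difference of each list in log2 units under 4 scalings, joined by a line, with the 75th percentile scaling filled. Endocrine and exocrine medians stay below 0 and immune medians other than the mast cell list above 0 under these 4 scalings, while the pan-leukocyte median runs from 0.72 with loess to 1.78 with the median scaling and the acinar enzyme median from -1.89 to -0.85.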

How the data were processed

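Agilent Feature Extraction 11.0.1.1 made the scanner files, per the submitters' processing notes. The deposited processed signal is a linear intensity, background-subtracted and detrended per the file headers, and deposited flag columns (other units) mark spots well above background and outliers. The authors' value table holds log2 values, with column medians of 8.62 to 8.63; how it was made is not given in the sources used here. Control and outlier spots were left out, spots of a probe averaged, and log2 signal minus the 75th percentile used. Probes took RefSeq symbols (GRCm38.p6, names only; 27234 of 39429, 69.1%), and the probe with the highest mean stood for its gene. A gene above background on 1 array only is given as a bound, against the higher of its own level and the lowest level above background (-5.84 at ZT12, -5.93 at ZT8). That lowest level is the lowest of any flagged probe. The bound applies to the main processing, and some alternatives gave smaller differences. Of 4316 genes with several probes, 1380 were at least 2-fold apart, and in 73.7% of these every probe had that direction. The 47 gene lists and the members were chosen with earlier results of these data known. Genes named are all measured clock genes; up to 6 members of each endocrine, exocrine or immune list with the largest difference and any at least 2-fold opposite to the list; the 3 largest and the brightest of other lists; and the 12 genes furthest each way, with 8 more each way by bound; others are marked as named after their values were seen. Some genes the rule selects are not reported here. The counting of 2-fold differences was checked on simulated data with known changes, which is no test of the differences reported. Alternatives changed scaling, background correction (normexp, offset 50, with quantile normalization; limma 3.58.1 in R 4.3.3), filter, probe rule and source. Python 3.11.15 with pandas 2.3.3 and numpy 2.4.6 was used. The number of arrays limits the precision.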

Additional observations from a re-analysis of the deposited data

How the results depend on the processing

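No paired analysis was possible because each time point had 1 array. Among 470 list medians computed under 10 alternatives, 433 moved by less than 1.5-fold, 37 moved by more, and 17 values from 11 lists had the other sign, in each case of a median under 2-fold; of 2795 values of named genes, 369 moved by more and 0 of those at least 2-fold apart reversed. Genes at least 2-fold higher numbered 4261 with the median scaling and 1639 with normexp and quantile normalization together, where 1982 were lower. With loess the medians were -3.35 for granin, -2.61 for vesicle fusion, -1.89 for acinar enzyme, 0.72 for pan-leukocyte, 1.26 for T cell and 0.84 for Gimap genes. With quantile normalization they were -3.37, -2.60, -1.85 and 0.82 for granin, vesicle fusion, acinar enzyme and pan-leukocyte genes. In the authors' value table these were -3.35, -2.63, -1.87 and 0.82, and the neutrophil median was 1.59. With normexp and quantile normalization the islet transcription factor, Reg, acinar enzyme, pan-leukocyte and mast cell medians were -2.02, -2.76, -1.90, 0.87 and -0.56. With no filter on background the duct median was -1.73. Loess and quantile normalization remove the trend with brightness by construction; the cause of the other moves was not tested. One alternative, the 75th percentile over spots rather than probes, was chosen after seeing the data. Signal over background limits the lower side: 1288 genes had only a bound at ZT12. Pools, hybridisations and animals were not repeated, so a difference between pools in tissue carried over cannot be told apart from one between times of day.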

Other observations

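Cell cycle genes were 17 of 19 at least 2-fold higher at ZT12 with a median of 1.46, against 14.4% higher and 17.0% lower over all genes, and 14 were so under every alternative. Mcm6, of the replication helicase, was at 2.62 and 4.53, 3.77-fold higher, and Birc5 and Ccnb1, of mitosis, were 3.44-fold and 3.43-fold higher on the brightest of 3 probes each, with 0.50 and 0.47 on the lowest. Genes normally silenced in beta cells were 8 of 11 higher with a median of 1.41, though 2 were higher with loess. Ldha, lactate dehydrogenase A, was 3.52-fold higher on its brightest probe and -1.20 on another, Zyx was 3.09-fold higher, and Hk1 3.09-fold on one probe and -0.02 on the other. Reference genes had a median of 0.68 and respiratory chain genes of 0.64, where Cox5a was 2.66-fold higher, but with loess the medians were -0.13 and -0.07 and 0 genes of either list were at least 2-fold higher.

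Of 15 stromal genes 4 were higher and 4 lower, with a median of 0.00, and with loess 0 were higher and 4 lower, with a median of -0.62. Among them was Thy1, made by fibroblasts and T cells, 3.38-fold higher. Smooth muscle and endothelial medians were 0.15 and -0.52, or -0.16 and -0.70 with loess, with Myh11, smooth muscle myosin, 4.64-fold lower and Plvap, of fenestrated endothelium, 3.65-fold lower on one probe and -0.23 on the other. Schwann cell genes were 3 of 6 lower, among them Sox10, the glial factor, 3.16-fold lower. In the unfolded protein response list, 6 of 16 were lower with a median of -0.27, and with loess 7 with a median of -0.97. Pdia4, an ER disulfide isomerase, was at 0.22 and -4.23, 21.9-fold lower, while Hspa5, the chaperone BiP, stood at 5.84 and 5.83. Heat shock genes were 4 of 11 higher with a median of 0.88, Dnajb1 by 2.89-fold, but with loess 0 were higher and the median was 0.18. Immediate early genes went both ways, with Jun 7.01-fold and Atf3 3.35-fold lower and Egr2 3.19-fold higher. The metallothionein Mt2 and the glucocorticoid target Klf9 were each 3.67-fold lower, and Tsc22d3, another glucocorticoid target, was 3.23-fold higher.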
